A study of Mus musculus with 4 samples.

Results

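The 10 genes described here encode enzymes that make or break down cyclic nucleotides: the adenylyl cyclases Adcy1, Adcy2, Adcy3, Adcy5, Adcy8 and Adcy9, and the phosphodiesterases Pde10a, Pde1b, Pde4b and Pde7b. They were chosen by name, as all array features whose annotated symbol is exactly 1 of these 10. This gave 23 features of the 33653 that carry 1 symbol, and 10 of the 18765 genes that could be fitted. All 23 features and all 10 genes entered the fit.

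Adenylyl cyclases make cyclic AMP from ATP under the control of G proteins, and phosphodiesterases hydrolyse cyclic AMP, cyclic GMP or both. Dopamine receptors raise or lower cyclic AMP in this way, through stimulatory or inhibitory G proteins. In the striatum, whose projection neurons send dense GABA input to the globus pallidus, Adcy5 is the main cyclase, and Pde10a and Pde1b are abundant phosphodiesterases.

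The tissue was the globus pallidus of male C57BL6 mice that went through conditioned place preference, a test of learned preference for the compartment paired with a drug. The 4 cocaine mice received cocaine at 15 mg/kg on days 2, 3 and 4 and, per the series' design text, had a high preference score. The 4 saline mice received saline on the same days of the same protocol, and a preference score was given for the cocaine mice alone. Each of 4 two-colour arrays carried 1 cocaine mouse and 1 saline mouse, in Cy5 and Cy3 for pairs 1 and 3 and in Cy3 and Cy5 for pairs 2 and 4.

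Values are log2 ratios of cocaine over saline, normalized within each array for brightness. This direction is likely and not stated: the deposited ratios turn over with the dye orientation, and the design text sets the cocaine mice against the saline mice. If the ratios run the other way, every sign below is turned and the channel signals change places. With 4 arrays, precision is set by their small number. Signals are given in scanner units and hold background, which is taken to lie near 107, the 5th percentile of all features with 1 symbol. The recovery of signals allowed no mean signal under 90, so that level is not a direct measure of background. Of 9 names of pallidal neuron markers 8 were measured, at mean signals of 229 to 10931 (Gad1), so these genes were above that level. They were not shown to be particular to pallidal neurons. Striatal projection neuron markers (7 genes) were also present, at 202 to 20357, while choroid plexus markers (3 genes) lay at 114 to 245. Fewer cells of a type and less RNA per cell cannot be told apart in this tissue.

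None of the 10 genes differed between cocaine and saline mice at an adjusted p under 0.05 (limma, Benjamini-Hochberg over all genes). In that fit 0% of all 18765 genes passed. The fitted log2 changes of the 10 genes ran from -0.19 to 0.097, with 6 above 0 and 4 below. Their median was 0.0090, against -0.0055 over all genes. Before adjustment, 1 of the 10 had a p under 0.05, Adcy5, which was lower. In all, 2.51% of genes had such a p, that is 0.879% of genes higher and 1.63% lower in cocaine mice. The 95% intervals of single genes, not adjusted for the number of genes, ended at -0.37 and 0.35 at the widest, that is at 0.77-fold and 1.27-fold. None of the 10 had the same sign in all 4 pairs, against 5.73% of all genes. Of the 23 features 1 did, a dim one of Adcy1 that was below 0 throughout, against 5.89% of all features.

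**Figure D1:**
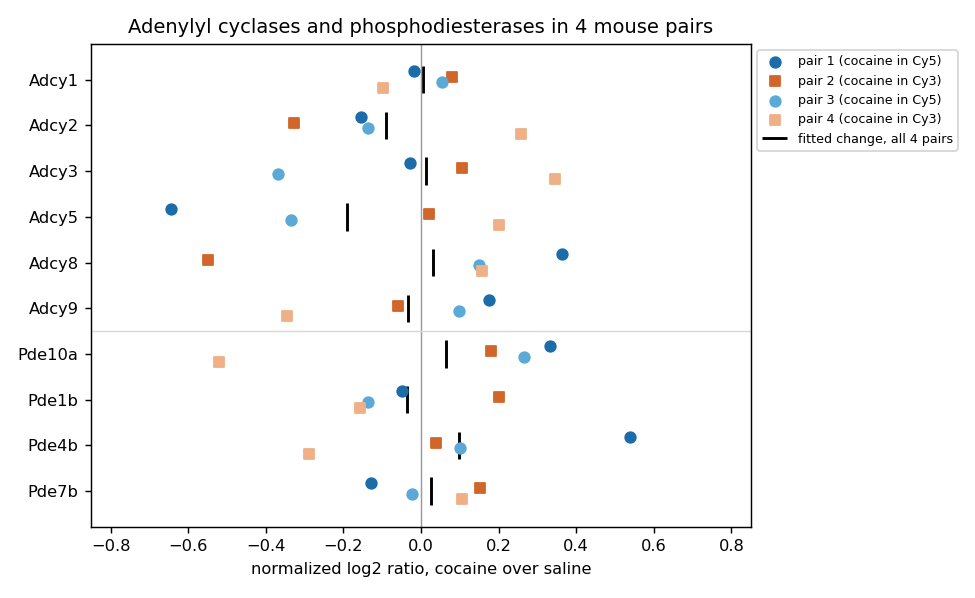
Normalized log2 ratio of cocaine over saline (x axis) for the 6 adenylyl cyclases and the 4 phosphodiesterases (rows), with 1 point for each mouse pair, circles for cocaine in Cy5, squares for cocaine in Cy3 and a black bar for the fitted change. Each row has points on both sides of 0, with Adcy5 reaching -0.64 and Pde4b 0.54 in pair 1, and Pde10a -0.52 in pair 4.

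Adcy5, the cyclase through which striatal neurons read dopamine and adenosine signals, had the change farthest from 0. Its ratios were -0.64, 0.020, -0.34 and 0.20 in pairs 1 to 4. It was thus lower in the cocaine mouse of pairs 1 and 3, near 0 in pair 2 and higher in pair 4. The fitted log2 change was -0.19 ± 0.076 (moderated SE, n = 4), with a 95% interval of -0.37 to -0.0053. It did not pass (limma, unadjusted p = 0.0455, adjusted p = 0.972). Both of its features, taken from the same transcript record, gave similar ratios, though on opposite sides of 0 in pair 2. The brighter had -0.60, 0.14, -0.33 and 0.22, and the dimmer had -0.69, -0.097, -0.34 and 0.18. The features of Adcy5 differed by at most 0.23 in any pair, less than the standard deviation between pairs of 0.38, so the spread of this gene lay mostly between arrays and not between probes. Fitted alone, the brighter feature had -0.14 ± 0.076 (moderated SE, n = 4), with an unadjusted p of 0.111 (limma). The dimmer feature had -0.24 ± 0.090 (moderated SE, n = 4). It was the 1 of 23 features at an unadjusted p under 0.05, against 2.01% of all features. Its fitted change was -0.15 without pair 1, -0.17 without pair 2, -0.32 without pair 3 and -0.31 without pair 4.

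The pairs with cocaine in Cy5 and those with cocaine in Cy3 did not overlap for Adcy5. The same held for Adcy3, Adcy9, Pde10a, Pde4b and Pde7b. The share over all genes was not counted, so this is not read as a trait of these genes. The dye effect of Adcy5, Cy5 over Cy3, was -0.30 ± 0.076 (moderated SE, n = 4) and missed the threshold (limma, adjusted p = 0.0542). So did those of the other 9 genes, against 12.4% of all genes past it. For Adcy5 the dye effect was larger than the fitted change of the treatment. Leaving out pair 1 gave a fitted log2 change of -0.11, and leaving out pair 3 gave -0.27. Among striatal projection neuron markers the median ratio was -0.27, 0.28, -0.18 and -0.084 in pairs 1 to 4 for 7 genes. These genes ran from -0.44 to -0.038 in pair 1, -0.57 to 0.88 in pair 2, -0.32 to 0.24 in pair 3 and -0.54 to 0.22 in pair 4, so that in pairs 2 to 4 they lay on both sides of 0. Of the 2 members named above as abundant in the striatum, Pde10a had 0.33, 0.18, 0.27 and -0.52 in pairs 1 to 4. Pde1b had -0.049, 0.20, -0.14 and -0.16. The part of striatal RNA in the ratios of Adcy5, Pde10a and Pde1b was not tested.

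The channel signals show what the normalization does to such a ratio. For the brighter Adcy5 feature, the cocaine and saline signals recovered from the ratios were 1642 and 1230 in pair 1, and 1674 and 993 in pair 3. The deposited log2 ratios of 0.42 and 0.75 are thus above 0. At that brightness, however, the trend of all features was 1.02 in pair 1 and 1.08 in pair 3, and the normalized ratios are the distances below it. The deposited ratios of pairs 2 and 4 keep fewer digits, and no channel signals were recovered for them.

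Adcy2, a cyclase stimulated by G protein beta-gamma subunits, had ratios of -0.16, -0.33, -0.14 and 0.26 in pairs 1 to 4. Pair 4 stood alone above 0. The fitted log2 change was -0.090 ± 0.10 (moderated SE, n = 4), with -0.24 without pair 4 and 0.056 without pair 2. Its features differed by at most 0.23 in any pair and lay on the same side of 0 in every pair.

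Of the remaining cyclases, Adcy1, stimulated by calcium and calmodulin, had gene-level ratios of -0.018, 0.080, 0.055 and -0.099. These small values average 4 features that differed by up to 0.85 within a pair. The brightest of these features, at a mean signal of 1419, had -0.26, 0.21, -0.011 and -0.064. The remaining 3 had mean signals of 115 to 183, close to background, where a change in the gene is understated. Adcy8, also stimulated by calcium and calmodulin, had a single feature with 0.36, -0.55, 0.15 and 0.16. Pair 2 stood alone below 0, and the fitted change of 0.030 became 0.21 without it and -0.15 without pair 4. Adcy3, known for olfactory and neuronal cilia, had -0.028, 0.10, -0.37 and 0.35, so that pairs 3 and 4 were the extremes on opposite sides. Adcy9, a broadly expressed cyclase, had 0.18, -0.059, 0.097 and -0.34, above 0 in both pairs with cocaine in Cy5 and below 0 in both with cocaine in Cy3. Fitted changes of these 4 genes lay between -0.033 and 0.030.

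Pde4b, a phosphodiesterase specific for cyclic AMP, had the highest fitted change of the 10 genes, 0.097 ± 0.096 (moderated SE, n = 4). Its ratios were 0.54, 0.038, 0.099 and -0.29 in pairs 1 to 4. The cocaine mouse of pair 1 was higher on all 5 features, which had 0.60, 0.62, 0.64, 0.64 and 0.20 from the brightest to the dimmest. For the brightest, the recovered signals were 5013 in the cocaine mouse and 1574 in the saline mouse of pair 1, against 3640 and 1615 in pair 3. In pair 4 all 5 features were below 0, at -0.16, -0.18, -0.24, -0.74 and -0.13 in the same order. Pairs 1 and 4, which differ in dye orientation, were thus opposite. Over all genes their ratios correlated at -0.53 (Pearson, across genes, not across independent samples). Arrays of unlike dye orientation correlated at -0.71 to -0.43, and those of like orientation at 0.55 and 0.56. The dye effect of Pde4b was 0.22 ± 0.096 (moderated SE, n = 4). For pairs 1 and 4 alone, mouse pair and dye orientation cannot be told apart. The gene's fitted change was -0.013 without pair 1 and 0.21 without pair 3. Oligodendrocyte markers (4 genes) had median ratios of 0.54, -0.19, 0.052 and -0.012 in pairs 1 to 4. In pair 1 they ran from -0.030 for Mag to 0.62 for Mbp. Marker lists of other cell types had medians from -0.27 (striatal projection neurons) to 0.39 (cholinergic neurons) in that pair. The part of any cell type in the value of Pde4b in pair 1 was not tested.

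Pde10a, which hydrolyses both cyclic nucleotides and is concentrated in striatal projection neurons, had 0.33, 0.18, 0.27 and -0.52 in pairs 1 to 4. The fitted log2 change was 0.065 ± 0.12 (moderated SE, n = 4), with 0.24 without pair 4 and -0.11 without pair 2. These means hide a disagreement between its features. The brighter, at a mean signal of 451, had 0.12, 0.64, -0.098 and -0.085, and the dimmer, at 154, had 0.55, -0.28, 0.63 and -0.96. They differed by 0.43 to 0.91 in each pair, more than the standard deviation between pairs of 0.40. The dimmer feature followed the dye: its dye effect was 0.60 (limma, adjusted p = 0.0312 over all features), positive meaning higher in Cy5. A feature of Pde4b at a mean signal of 265 did the same, at 0.53 (limma, adjusted p = 0.0225). These were the 2 of 23 features with such an effect past the threshold, against 12.1% of all features. Without pair 1, and without pair 3, the count was 0.

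Pde1b, which calcium and calmodulin activate, had a single feature far above background, with channel signals of 13078 and 6154 in the cocaine and saline mice of pair 1 and 13233 and 6188 in those of pair 3. Its ratios were -0.049, 0.20, -0.14 and -0.16. Pair 2 stood alone above 0, and the fitted log2 change was -0.035 ± 0.076 (moderated SE, n = 4). Pde7b, another phosphodiesterase specific for cyclic AMP, had 3 features at mean signals of 129 to 140. At this level the ratios, -0.13, 0.15, -0.022 and 0.11 in pairs 1 to 4, come from signals close to background, where a change in the gene is understated. The fitted change was 0.027 ± 0.058 (moderated SE, n = 4).

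**Figure D2:**
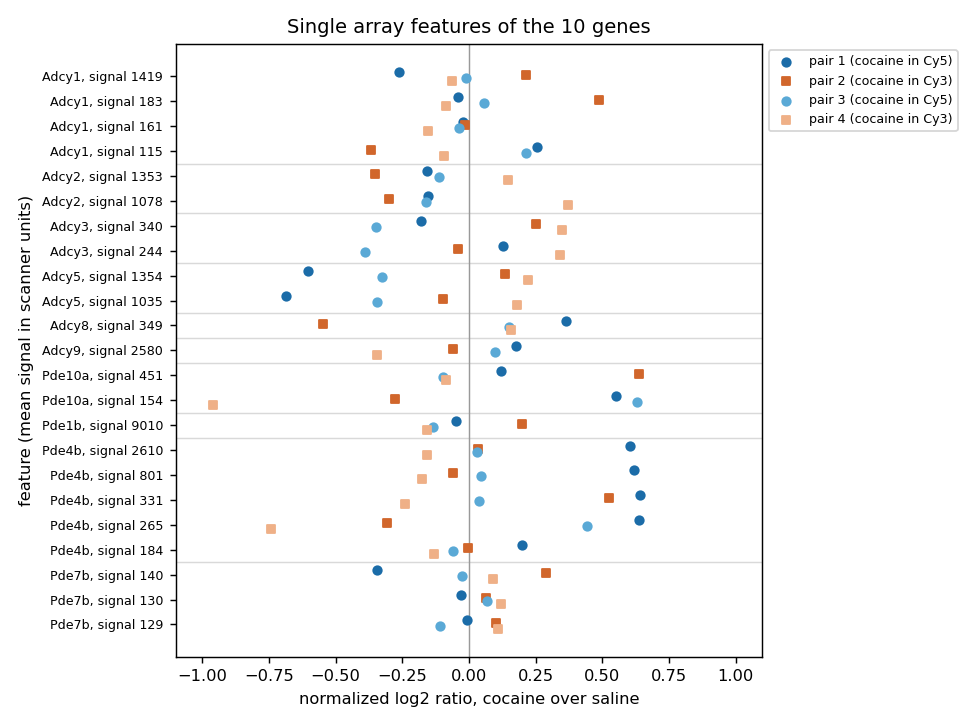
Normalized log2 ratio of cocaine over saline (x axis) for each of the 23 features (rows, labelled with the mean signal in scanner units), with circles for pairs with cocaine in Cy5 and squares for pairs with cocaine in Cy3. The 2 features of Adcy5 and of Adcy2 differ by at most 0.23 in any pair, and those of Pde10a by 0.43 to 0.91. All 5 features of Pde4b lie above 0 in pair 1 and below 0 in pair 4.

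The enzymes were also averaged by family. The mean ratio of the 6 cyclases was -0.051, -0.12, -0.090 and 0.087 in pairs 1 to 4, and that of the 4 phosphodiesterases 0.17, 0.14, 0.052 and -0.22. The cyclases minus the phosphodiesterases gave -0.23, -0.26, -0.14 and 0.30, so pair 4 was opposite to the other 3. After fitting, 3 of 6 cyclases and 3 of 4 phosphodiesterases were above 0. The median ratio of the features around each member feature was at most 0.11 from 0 on any array. That largest value was at the dimmer Adcy5 feature in pair 1, where pairs 2 to 4 had -0.059, -0.019 and 0.0075. The fitted change of that feature was -0.24 before and -0.25 after these medians were subtracted. Subtraction of local medians turned the fitted change of Adcy1 to -0.0055 and that of Adcy9 to 0.011.

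Single pairs decided the sign for most of the genes. Without 1 pair or another, 8 of the 10 changed sign, and Adcy5 and Pde7b kept theirs in all 4 such fits. Pde7b, with signals close to background, was only at 0.00043 without pair 3. The share of all genes that changed sign in this way was not counted, so these counts are not read as a trait of the 10 genes. The median distance of their fitted changes from 0 was 0.034, against 0.050 over all genes. Without pair 4, Adcy2, Pde10a and Adcy5 were at an unadjusted p under 0.05, 3 of 10, when 13.3% of all genes were. None passed after adjustment in any of these fits, where the smallest adjusted p of a member was 0.247 (limma). A fit on 3 pairs leaves a single array in 1 dye orientation.

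**Figure D3:**
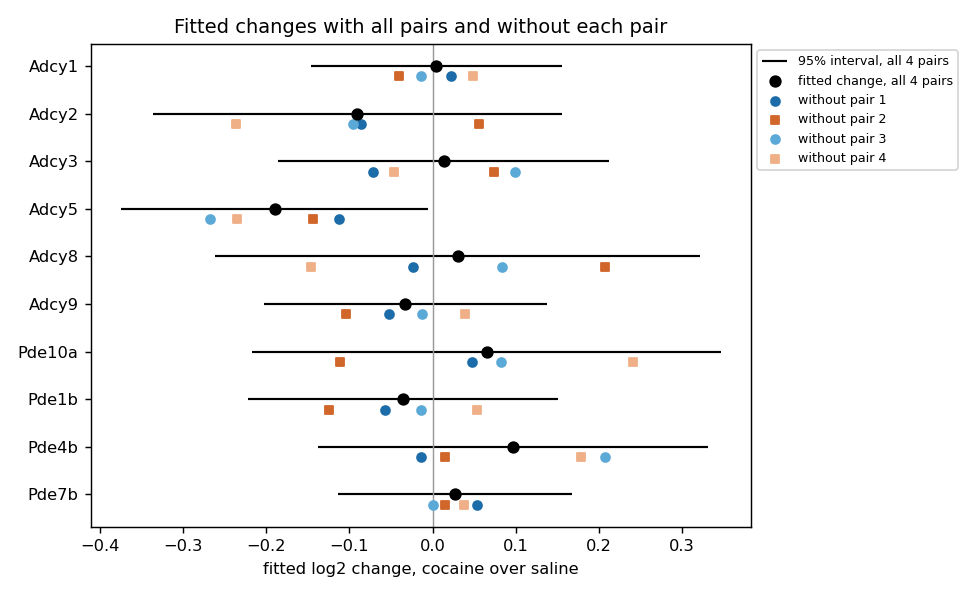
Fitted log2 change of cocaine over saline (x axis) for each of the 10 genes (rows), with all 4 pairs (black points, lines for 95% intervals) and with each pair left out (coloured points below the line). The intervals of 9 genes include 0, that of Adcy5 ends at -0.0053, and coloured points lie on both sides of 0 for 8 genes.

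The other genes of the pathway were taken from lists. Of 101 measured genes in 8 lists, 0 passed in either direction (limma), 48 had fitted changes above 0 and 53 below, and the median was -0.0024, against -0.0055 over all genes. The median distance from 0 was 0.054, against 0.050 over all genes. Before adjustment, 3 lower genes and 0 higher ones of the 101 had a p under 0.05, when 1.63% of all genes were lower and 0.879% higher at that p. These were the cyclase Adcy4 at -0.17 ± 0.065, the G protein gamma subunit Gng8 at -0.29 ± 0.10 and the dopamine receptor Drd4 at -0.18 ± 0.073 (moderated SE, n = 4). All 3 were above 0 in pairs 1 and 3, with cocaine in Cy5, and below 0 in pairs 2 and 4. Their dye effects passed the threshold (limma, adjusted p = 0.0296, 0.0104 and 0.0270), as did those of 14 of the 101 genes in all and of 12.4% of all genes.

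Of the other cyclases, 1 of 4 was above 0, with Adcy7 at 0.077 ± 0.059, above 0 in all 4 pairs, and Adcy10 at -0.037 ± 0.057. Of the other phosphodiesterases, 10 of 20 were above 0 and the median change was 0.00042. Pde8b, specific for cyclic AMP, had 0.13 ± 0.074, the cone enzyme Pde6c -0.18 ± 0.11 and the cyclic GMP enzyme Pde9a 0.079 ± 0.060. Guanylyl cyclases, which make cyclic GMP, had 3 of 8 above 0, with Gucy1b1, a subunit of the nitric oxide receptor, at 0.082 ± 0.067, Gucy2e at 0.0997 ± 0.083 and Gucy2c at -0.072 ± 0.060. G protein subunits had 9 of 22 above 0, with Gng3 at -0.15 ± 0.083 and Gnb5 at 0.17 ± 0.094. Receptors coupled to stimulatory or inhibitory G proteins had 4 of 11 above 0, with Drd2 at -0.13 ± 0.085 and Drd3 at -0.087 ± 0.059. All 6 measured calmodulins and calmodulin regulators were above 0, by 0.019 to 0.18, against 8850 of all 18765 genes. Their median ratio was 0.15 in pair 1 and -0.012, -0.013 and 0.026 in pairs 2 to 4, and 0 of them had 1 sign in all pairs. Calm3, a calmodulin gene, was the highest at 0.18 ± 0.14, with 0.80 in pair 1 and -0.073 to 0.053 in the other pairs. Calml3 had 0.072 ± 0.062 and Pcp4, which binds calmodulin, 0.064 ± 0.056. Effectors of cyclic AMP and cyclic GMP had 10 of 22 above 0, with Pkig, an inhibitor of protein kinase A, at 0.13 ± 0.058 and Popdc2 at -0.13 ± 0.077. Popdc2 had a mean signal of 104, at the level of background, and a dye effect of 0.40 past the threshold (limma, adjusted p = 0.0269). Calml3, Pde6c, Adcy10 and Drd4, at mean signals of 122, 127, 130 and 132, also lay close to background, where a change in the gene is understated. The cyclic nucleotide-gated channel gene Hcn2, at -0.12 ± 0.056, was below 0 in all 4 pairs. Hcn2 and Adcy7 were the 2 of 101 pathway genes with 1 sign in all pairs, against 5.73% of all genes. The CREB family had 5 of 8 above 0, with the coactivator Crtc2 at -0.089 ± 0.056, Atf1 at 0.067 ± 0.067 and Creb1 at 0.077 ± 0.095.

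**Figure D4:**
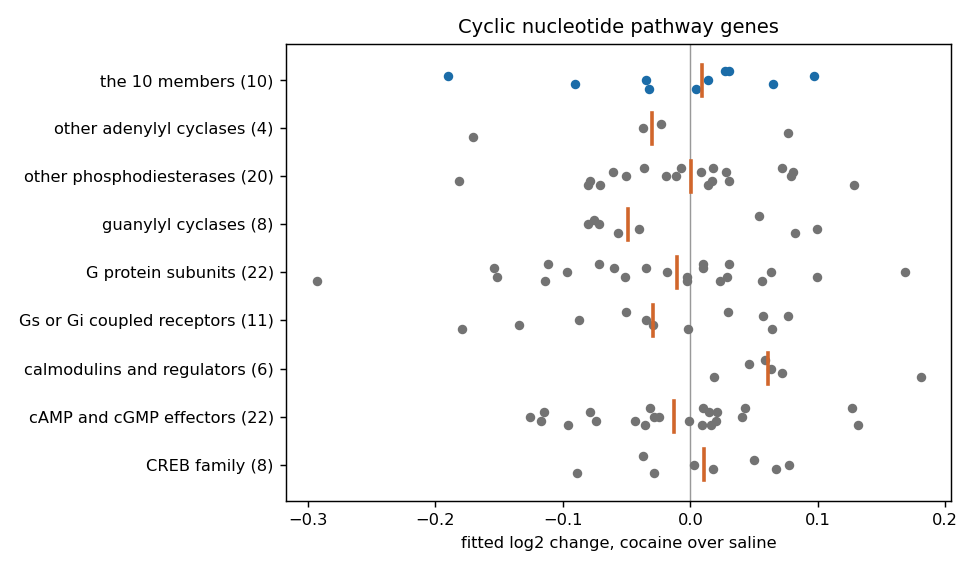
Fitted log2 change of cocaine over saline (x axis) for the 10 cyclases and phosphodiesterases (blue) and for the other genes of the cyclic nucleotide pathway by list (grey, number of measured genes in brackets), with an orange bar at each list's median. The medians lie within 0.061 of 0, and no gene passed the threshold.

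Cyclic AMP acts on transcription through CREB, so the RefSeq promoter windows of the members (GRCm38.p6, 250 bases before to 50 after a start) were searched on both strands for the core of its site, TGACG, and for the full palindrome, TGACGTCA, which contains that core. Windows were found for 9 of the 10 genes, 16 in all. The full palindrome was in 0 of the 16, against 1.79% of all 32851 windows, and the core in 2 of the 16, against 20.8%. Those 2 windows are shown with the core in capitals. That of Adcy9 is at chr16:4420449-4420748 on the minus strand, with the core beginning at position -24 from the start. That of Pde4b is at chr4:102421305-102421604 on the plus strand, with the core on the opposite strand from position -34.

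Adcy9: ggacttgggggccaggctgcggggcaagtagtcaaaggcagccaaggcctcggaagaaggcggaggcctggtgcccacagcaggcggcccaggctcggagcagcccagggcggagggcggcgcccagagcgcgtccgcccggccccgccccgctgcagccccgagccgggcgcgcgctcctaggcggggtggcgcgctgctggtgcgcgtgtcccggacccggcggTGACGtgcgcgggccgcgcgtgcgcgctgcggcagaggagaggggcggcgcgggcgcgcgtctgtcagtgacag

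Pde4b: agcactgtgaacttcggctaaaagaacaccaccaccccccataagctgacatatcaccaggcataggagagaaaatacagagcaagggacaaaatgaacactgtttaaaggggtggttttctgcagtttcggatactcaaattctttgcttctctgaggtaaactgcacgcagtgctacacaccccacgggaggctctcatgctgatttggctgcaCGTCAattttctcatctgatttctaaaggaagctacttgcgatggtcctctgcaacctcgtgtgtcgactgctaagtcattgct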

How the data were processed

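Per the labels, total RNA was extracted with a PicoPure kit, and 75 ng of it was labelled by linear amplification. Agilent Feature Extraction is listed in the submitters' processing notes, without settings. Values deposited by the authors are log2 ratios per feature (45220 features). For pairs 1 and 3, 99.9% of them are log2 of a ratio of 2 whole numbers (3.43% and 3.13% of the first 3000 if read as log10), so the authors' ratios are read as holding background and no dye correction. Column medians were 0.42, -0.58, 0.41 and -0.43. Scale and centring follow from the values, and the direction stays likely only.

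The signals behind the ratios were recovered for 96.7% of features from the reduced fractions of pairs 1 and 3, choosing common multiples up to 40 by their agreement between arrays (tolerance 2e-14 on the log2 value, floor 90). In simulated data 89.5% of resolved features lay within 0.25 log2 of the truth. The simulated signals were drawn from the recovered ones and had no dye trend, so this share may not hold for the real arrays. Loess (limma 3.58.1, span 0.3) ran on this signal in all 4 arrays. Features with 1 symbol in the platform annotation were averaged per gene. limma fitted a treatment and a dye coefficient (2 residual and 4.07 prior degrees of freedom), two-sided, adjusted over all genes, and was tested on simulated data. The fit assumed normalized ratios, so loess was needed first. Per the titles, the 4 arrays hold different animals.

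The members and lists were chosen with earlier results of these data known. Named genes are the members and, from each pathway list, the 3 with the smallest unadjusted p. The alternatives were no loess, another loess span, no dye term, scaled arrays, the brightest feature of a gene, brighter features only, subtraction of local medians and each pair left out.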

Additional observations from a re-analysis of the deposited data

How the results depend on the processing

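Under 11 alternatives none of the 10 genes passed the adjusted threshold (limma), and 0 of the other pathway genes did. Counts of members at an unadjusted p under 0.05, 1 with all pairs, were 0 with the deposited ratios centred on the median, 0 without the dye term, 0 with the brightest feature, 0 with features above the median signal only, and 0 to 3 when a pair was left out. The median change of the members was -0.031 with features above the median signal only, where Pde7b could not be measured, and -0.038 to 0.038 when a pair was left out. Members with a dye effect past the threshold, 0 with all pairs, were 6 with the deposited ratios, where brightness and dye are mixed by construction, 1 with scaled arrays, 1 after subtraction of local medians and 0 to 1 when a pair was left out.

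Fitted log2 changes turned sign for these genes. Adcy1 was at -0.031 with the brightest feature, -0.031 with features above the median signal and -0.0055 after subtraction of local medians, and Adcy3 at -0.0021 with scaled arrays. Adcy9 was at 0.011 after subtraction of local medians. When a pair was left out, Adcy1 ran from -0.040 to 0.049, Adcy2 from -0.24 to 0.056, Adcy3 from -0.072 to 0.099 and Adcy8 from -0.15 to 0.21. Adcy9 ran from -0.10 to 0.039, Pde10a from -0.11 to 0.24, Pde1b from -0.12 to 0.054 and Pde4b from -0.013 to 0.21. The cause was not tested. Adcy5 stayed below 0 in all 11, from -0.33 to -0.11, while its dye effect was 0.28 with the deposited ratios. Every fit is itself paired, with 1 ratio per mouse pair, so a fit without the pairing could not be made. Genes with an unadjusted p under 0.05, 2.51% with all pairs, were 1.08% with the deposited ratios, 0.570% without the dye term and 0.895% to 13.3% when a pair was left out. Adjusted calls among all genes, 0 with all pairs, were 3 lower without pair 2, and 2 lower and 1 higher without pair 4. Features of the members with a dye effect past the threshold, 2 with all pairs, were 15 with the deposited ratios, 4 after subtraction of local medians, 0 with features above the median signal and 0 to 3 when a pair was left out. The unadjusted p of the dimmer Adcy5 feature was 0.172 without the dye term, 0.0506 after subtraction of local medians and 0.0516 with features above the median signal. Signal over background limits Pde7b and 8 of the 23 features, whose mean signals were under 200.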
